A study of Mus musculus with 6 samples.

Results

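The tumour necrosis factor (TNF) superfamily was examined in 410.4 cells, a mouse mammary carcinoma line, with and without neutrophil extracellular traps (NETs), the webs of DNA and granule proteins that neutrophils expel. The members were chosen by gene symbol: every gene named Tnfsf or Tnfrsf with a number, and Tnf, Lta, Ltb, Ltbr, Fas, Fasl, Cd40 and Eda2r. This gave 40 of the 55809 genes in the count table, made up of 15 ligand genes, 24 receptor genes and Tnfsf13os, a transcript from the strand opposite to Tnfsf13. Messenger RNA was sequenced from 3 libraries of cells in control medium (DMEM with 0.5% serum) and 3 libraries of cells in medium of the same kind into which NETs had been isolated, after 2 days. All cells were of this single line, the labels do not name the source of the neutrophils, and the media can differ in more than the NETs themselves. Nothing in the labels says that the 3 replicates of a medium were grown as separate cultures, and p-values here take the spread among libraries as their only error, technical or not.

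Ligands of the TNF family are mostly trimeric membrane proteins, some of which are shed, and they act by clustering receptors on the same or neighbouring cells. Receptors with a death domain (Tnfrsf1a, Fas, Tnfrsf10b, Tnfrsf21, Tnfrsf25) can assemble complexes that activate caspases, whereas most others recruit TRAF adapters and activate NF-kB. Decoy receptors bind a ligand and pass on no death signal. In mammary tissue the family is best known for RANK ligand and its receptor, which drive growth of the gland in pregnancy, and in tumours for TNF, Fas ligand and TRAIL.

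Total counts ran from 43923391 to 64431811 in control medium and from 31119105 to 52890140 with NETs, and replicates of a medium correlated at 0.991 to 0.995 (r of log CPM over genes). Levels are TMM-scaled CPM (each count over its library's scaled total), and, between genes, CPM per kilobase of exon (RPKM). Adjusted p denotes the quasi-likelihood test of edgeR after Benjamini-Hochberg adjustment over all 13956 genes that passed a low-count filter, and genes under 0.05 were called. All 7 mammary epithelial markers (among them Epcam, Cdh1 and Krt8) were present, with a summed level of 4442 to 4718 CPM in control libraries and 4578 to 4777 CPM in NET libraries. Within that sum Krt7 (1.33-fold) and Krt8 (1.19-fold) were called higher with NETs. Krt18 (1.21-fold) and Cdh1 (1.10-fold) were called lower, and Epcam, Krt19 and Cldn3 were not called. Of 12 neutrophil markers 6 had no count in any library, and Ltf, which mammary epithelium also makes, held most of the rest. The list summed to 179 to 262 CPM in control medium against 27.7 to 32.3 CPM in NET libraries, and without Ltf to 1.62 to 2.08 CPM against 2.98 to 3.37 CPM, most of it S100a8. The rest of the list did not move together. S100a8 had 226 counts in control libraries and 332 in NET libraries, and Cxcr2 37 and 58. Ly6g had 20 counts in control libraries and 0 in NET libraries, S100a9 20 and 11, and Mpo 2 and 0. The part of neutrophil transcripts in these values was not tested.

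With NETs the family changed in both directions. The receptor gene Cd40 went from almost no reads to about 1 CPM, the decoy receptor gene Tnfrsf11b rose, and the 2 receptors for TNF moved apart, with Tnfrsf1b higher and Tnfrsf1a lower. The death domain receptor genes Fas and Tnfrsf21 rose, while the ligand genes Tnf, Tnfsf9 and Tnfsf13 and a cluster of 3 neighbouring receptor genes (Tnfrsf22, Tnfrsf23, Tnfrsf26) fell. Of the 40 members 21 passed the low-count filter and were tested, of which 6 rose and 8 fell. Over all genes tested 38.9% were called, 20.2% higher and 18.7% lower. The groups did not overlap in CPM for 14 of the 21 tested members and for 49.0% of all genes tested. The median log2 fold change of the tested members was -0.01, and that of all genes tested lay at zero to the second decimal. Cd40 and Tnfrsf11b passed the low-count filter through their levels with NETs alone, so the count among tested members is no measure of how the family as a whole compares with other genes.

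**Figure D1:**
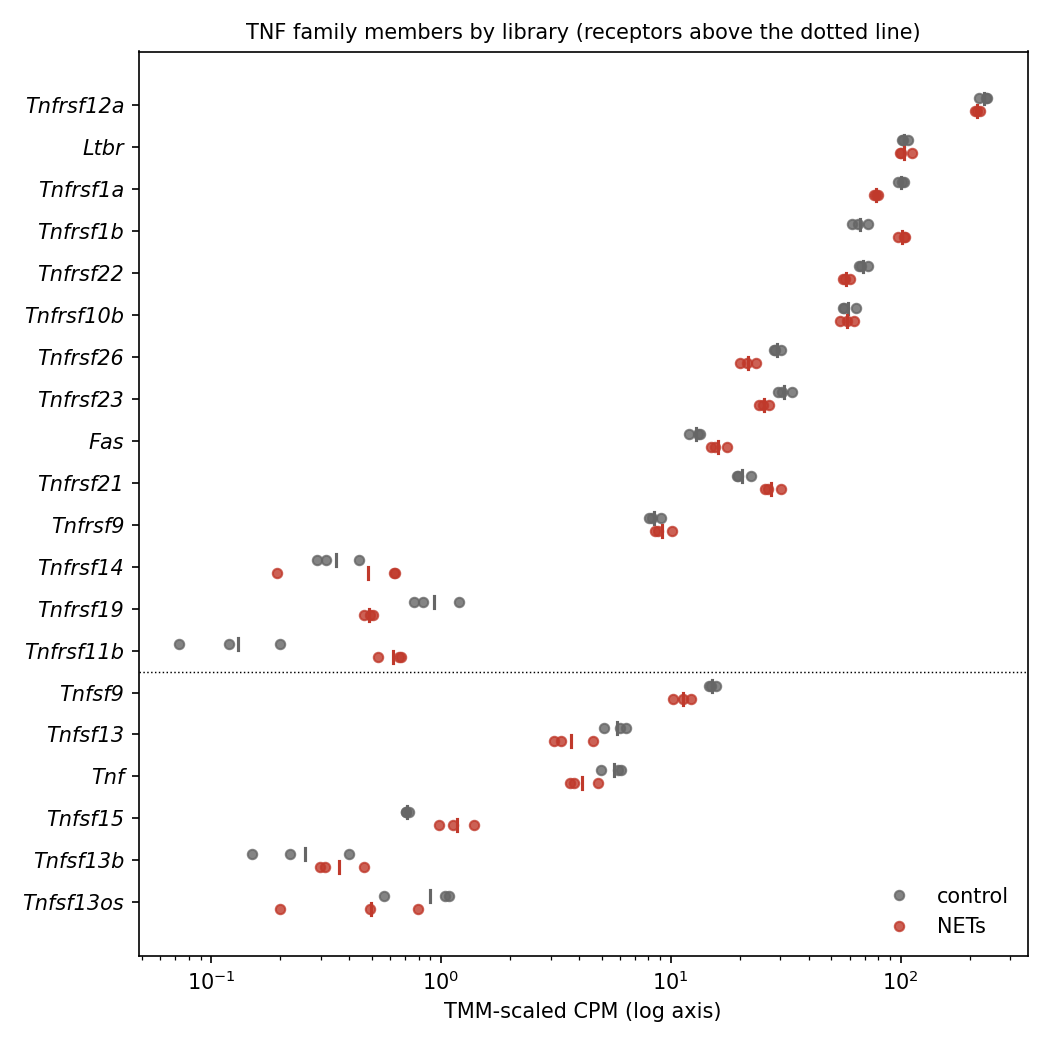
TMM-scaled CPM on a log axis for the 20 tested members with a value above zero in every library. Points are libraries, short vertical bars are group means, grey is control medium and red is NETs, and members are ordered by RPKM in control medium within receptors (above the dotted line) and the ligands with Tnfsf13os (below). Tnfrsf12a is highest near 232 CPM in control medium, and Tnfrsf1a and Tnfrsf1b shift in opposite directions.

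TNF is the founding ligand of the family, and its receptors Tnfrsf1a (TNFR1, with a death domain) and Tnfrsf1b (TNFR2, without) differ in what they recruit. Tnf stood at 4.96, 6.06 and 5.90 CPM in control replicates 1 to 3 and at 3.66, 3.79 and 4.83 CPM in NET replicates 1 to 3. The NET libraries were all lower, with NET replicate 3 just under the lowest control library. The fall was 1.37-fold (log2 fold change -0.45 ± 0.141 SE, adjusted p = 0.0182). The call was lost on leaving out the second control library (adjusted p = 0.0668), the first NET library (adjusted p = 0.0731) or the second NET library (adjusted p = 0.0583). In bulk RNA, less transcript in each cell and fewer cells with the transcript cannot be told apart.

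Tnfrsf1b had 65.6, 72.4 and 61.3 CPM in control libraries and 105, 97.0 and 103 CPM in NET libraries. All NET libraries exceeded all control libraries, and the rise was 1.53-fold (log2 fold change 0.61 ± 0.061 SE, adjusted p = 4.82e-07). Tnfrsf1a had 101, 104 and 97.3 CPM in control libraries and 79.4, 78.3 and 77.0 CPM in NET libraries, again without overlap. It fell 1.29-fold (log2 fold change -0.37 ± 0.050 SE, adjusted p = 1.55e-05). Both calls held in each of the 9 other settings and with each of the 6 libraries left out.

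Per kilobase of exon, Tnfrsf1b therefore drew near to Tnfrsf1a. Tnfrsf1a had 38.9 ± 1.29 RPKM (mean ± SD, n = 3) in control medium and 30.2 ± 0.467 RPKM with NETs, and Tnfrsf1b had 17.4 ± 1.46 and 26.6 ± 1.09 RPKM. The ratio of Tnfrsf1b to Tnfrsf1a within a library was 0.440, 0.473 and 0.428 in control medium and 0.899, 0.840 and 0.905 with NETs. The groups did not overlap, and the mean ratio moved from 0.447 ± 0.0234 to 0.881 ± 0.0357. A ratio within a library does not depend on the scaling of libraries. A two-sided exact permutation test gave p = 0.1, the smallest that 3 libraries against 3 allow (adjusted p = 0.1 over 3 ratios examined).

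**Figure D2:**
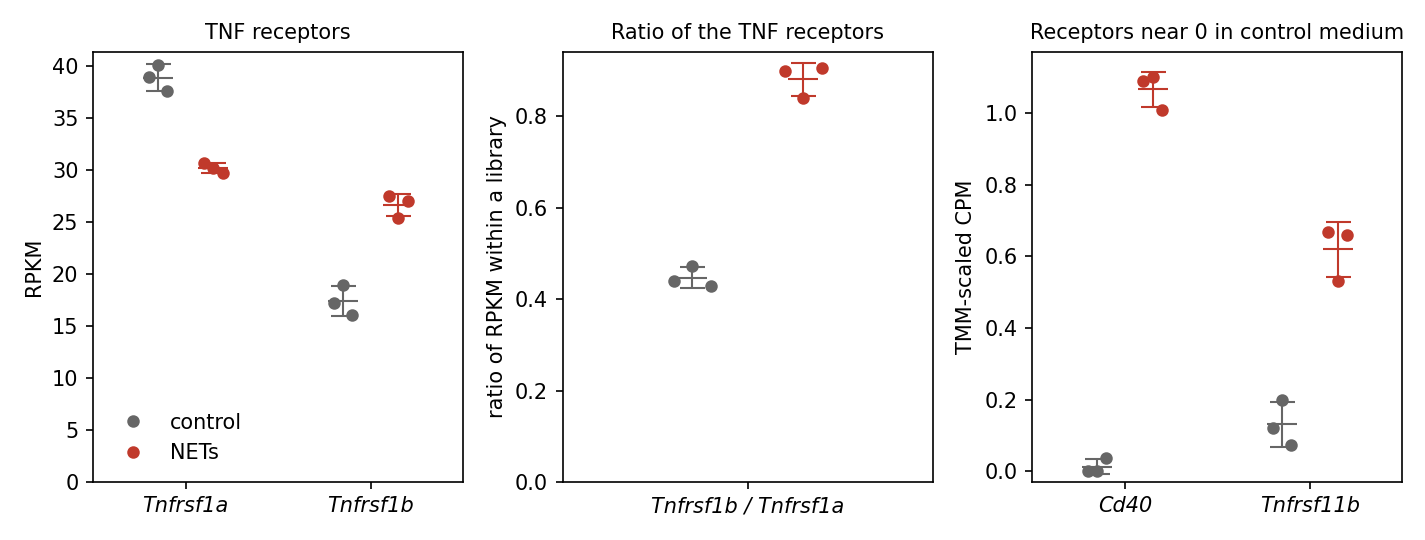
Left, RPKM of the TNF receptor genes; middle, their ratio within each library; right, TMM-scaled CPM of Cd40 and Tnfrsf11b. Points are libraries (grey control medium, red NETs), and bars are the mean with SD over 3 libraries. The ratio lies between 0.428 and 0.473 in control medium and between 0.840 and 0.905 with NETs. Cd40 lies at 0.0363 CPM or below in control libraries and between 1.01 and 1.10 CPM in NET libraries.

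The 250 bases before the annotated start of these 3 genes are shown, since the 2 receptor genes moved in opposite directions and the ligand gene fell. They are RefSeq sequences of build GRCm38.p6, 5′ to 3′ on the strand of the gene, with capitals for GC boxes (GGGCGG on either strand) and a TATA element (TATAAA). Tnf lies upstream at chr17:35202008-35202257 (minus strand), Tnfrsf1a at chr6:125349473-125349722 (plus strand) and Tnfrsf1b at chr4:145246871-145247120 (minus strand).
Tnf: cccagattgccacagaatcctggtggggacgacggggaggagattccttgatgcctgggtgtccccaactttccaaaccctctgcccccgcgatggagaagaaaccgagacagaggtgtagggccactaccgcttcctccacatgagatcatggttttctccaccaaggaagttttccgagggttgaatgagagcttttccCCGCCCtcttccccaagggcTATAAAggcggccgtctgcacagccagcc
Tnfrsf1a: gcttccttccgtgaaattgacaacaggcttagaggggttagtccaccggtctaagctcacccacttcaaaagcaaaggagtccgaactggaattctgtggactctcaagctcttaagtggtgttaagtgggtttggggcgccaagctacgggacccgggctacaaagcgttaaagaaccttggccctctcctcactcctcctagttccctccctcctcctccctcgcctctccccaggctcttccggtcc
Tnfrsf1b: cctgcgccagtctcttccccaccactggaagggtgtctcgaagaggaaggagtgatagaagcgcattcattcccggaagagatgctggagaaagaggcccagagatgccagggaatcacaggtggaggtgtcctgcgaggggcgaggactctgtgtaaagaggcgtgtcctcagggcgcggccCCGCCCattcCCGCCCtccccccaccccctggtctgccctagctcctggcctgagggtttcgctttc

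Tnf holds a TATA element that begins 29 bases before the start and a GC box at 49 bases before it. Tnfrsf1b holds GC boxes at 67 and 57 bases before its start and no TATA element, and none of the letters searched is in the Tnfrsf1a window. Of 32851 promoter windows of the same length 32.7% hold a GC box and 12.4% a TATA element. The kappaB consensus (3.90% of windows), the AP-1 motif TGANTCA (6.75%) and the SMAD palindrome (0.167%) are not in any of the 3 windows, both strands searched. A match or its absence describes these letters only.

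Cd40 encodes a receptor best known on B cells and antigen-presenting cells, which binds the CD40 ligand of T cells and signals through TRAF adapters. Its counts were 0, 0 and 2 in control medium and 49, 33 and 52 with NETs. The control libraries were at or next to zero, and the NET libraries lay close together at 1.09, 1.10 and 1.01 CPM. Taken as read pairs, 1 pair in all control libraries stood against 68 with NETs, a ratio per pair sequenced of 85.6 (exact 95% interval 14.8 to 3429, counting error only). The rise was called (adjusted p = 6.79e-07), and it remained called in all 8 other settings in which it was tested and with each library left out. The level reached remained low, at 0.313 ± 0.0147 RPKM, below that of every member called by the test except Tnfrsf11b, Tnfsf15 and Tnfrsf19. The leukocyte markers Ptprc, Itgam, Adgre1, Tyrobp, Cd3e and Lyz2 had no count in any NET library. In control libraries Ptprc had 16 counts, Itgam 7, Lyz2 4 and Cd3e 2, while Adgre1 and Tyrobp had none. Cd79a, a B cell marker, had 0.0388 CPM at most with NETs. The list of 8 leukocyte markers summed to 10.6 to 14.6 CPM in control libraries and 10.2 to 11.3 CPM in NET libraries, nearly all of it Cd68, a lysosomal gene of macrophages that many other cells also express. The part of leukocyte transcripts in the Cd40 rise was not tested.

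Tnfrsf11b encodes osteoprotegerin, a secreted decoy that binds RANK ligand and TRAIL. It had 0.120, 0.199 and 0.0726 CPM in control libraries and 0.669, 0.531 and 0.659 CPM in NET libraries, where every library was higher than any control library. The rise was 4.85-fold (log2 fold change 2.28 ± 0.453 SE, adjusted p = 0.000695), and it rested on 21 counts in control medium and 80 with NETs. RANK ligand (Tnfsf11) had no count in any library, and its receptor RANK (Tnfrsf11a) had 4 counts, all in control replicate 2. Of the fibroblast markers Dcn and Lum had no count, while Col1a1, at 1.18 ± 0.129 CPM in control libraries and 13.4 ± 2.48 CPM in NET libraries, rose 11.3-fold (adjusted p = 2.34e-11). Pdgfra, at 45.4 ± 3.37 and 49.2 ± 2.13 CPM, was not called (adjusted p = 0.164). Col1a2 had 4 counts in control libraries and 9 in NET libraries, too few to test. The list of 5 summed to 42.8 to 48.7 CPM in control libraries and 59.2 to 67.9 CPM in NET libraries. The 4 endothelial markers summed to 12.3 to 14.2 and 14.1 to 16.9 CPM, nearly all of it Cdh5, which rose 1.21-fold (adjusted p = 0.0266), and Pecam1, Kdr and Tek were each under 0.1 CPM in every library. The part of these markers in the Tnfrsf11b rise was not tested.

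Among the 5 receptor genes with a death domain, Fas and Tnfrsf21 rose and Tnfrsf1a fell. Fas, the receptor for Fas ligand, had 13.2, 12.0 and 13.4 CPM in control libraries and 15.6, 17.5 and 15.0 CPM in NET libraries. The groups did not overlap, but the rise was small at 1.24-fold (log2 fold change 0.31 ± 0.087 SE, adjusted p = 0.00986), and without NET replicate 2 it missed the threshold (adjusted p = 0.0517). Tnfrsf21, death receptor 6, had 19.5, 22.3 and 19.6 CPM in control libraries and 30.1, 25.7 and 26.4 CPM in NET libraries. It rose 1.34-fold (log2 fold change 0.42 ± 0.079 SE, adjusted p = 0.000398) and kept its call with each library left out. Tnfrsf10b, the TRAIL receptor that carries a death signal in the mouse, had 56.2, 56.6 and 63.8 CPM in control libraries and 54.6, 62.8 and 58.3 CPM in NET libraries. The groups overlapped, and the log2 fold change was -0.01 with a 95% interval of -0.15 to 0.13 (adjusted p = 0.929). Tnfrsf25 had at most 6 counts in a library and was not tested.

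The receptor genes Tnfrsf26, Tnfrsf22 and Tnfrsf23 lie in a row on chromosome 7, and all 3 fell. The products of Tnfrsf22 and Tnfrsf23 bind TRAIL without a death domain and are regarded as decoys, and that of Tnfrsf26 is an orphan receptor. Tnfrsf22 had 66.1, 67.5 and 72.4 CPM in control libraries and 57.3, 60.1 and 56.1 CPM in NET libraries (1.19-fold lower, log2 fold change -0.25 ± 0.055 SE, adjusted p = 0.00175). Tnfrsf23 had 30.5, 29.2 and 33.7 CPM and then 25.3, 26.9 and 24.3 CPM (1.22-fold lower, log2 fold change -0.29 ± 0.070 SE, adjusted p = 0.00323). Tnfrsf26 had 28.4, 30.2 and 28.1 CPM and then 23.5, 20 and 21.4 CPM (1.33-fold lower, log2 fold change -0.41 ± 0.072 SE, adjusted p = 0.000212).

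The groups did not overlap in any of the 3 genes, as in 49.0% of all genes tested. Each of the 3 remained called with each library left out. The genes are close relatives, so reads that fit more than 1 of them may have been divided or dropped in the counting, and their values are not fully independent. Exons of Tnfrsf26 and Tnfrsf23 overlap E230032D23Rik on the other strand, which had 17 counts in control medium and 31 with NETs in all. Beside Tnfrsf10b in the same library, the RPKM ratio of Tnfrsf22 to Tnfrsf10b went from 1.51 ± 0.0388 to 1.28 ± 0.0684 and that of Tnfrsf23 from 0.729 ± 0.0183 to 0.600 ± 0.0327. Neither ratio overlapped between the groups (two-sided exact permutation p = 0.1 for each, the smallest possible, and 0.1 after adjustment over 3 ratios).

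Tnfrsf12a and Ltbr were the most abundant members and were not called. Tnfrsf12a encodes Fn14, an inducible receptor for TWEAK, and had 220.2, 238 and 236 CPM in control libraries and 222, 215 and 210.2 CPM in NET libraries. Its log2 fold change was -0.10 with a 95% interval of -0.21 to 0.00 (adjusted p = 0.114). The fall passed the threshold when libraries were scaled by upper-quartile factors or by library size alone (adjusted p = 0.0488 and 0.00914), so whether it fell depends on the scaling. Ltbr, the lymphotoxin beta receptor, had 101, 108 and 102 CPM in control libraries and 99.8, 112 and 100.3 CPM in NET libraries. The 95% interval of its log2 change ran from -0.12 to 0.12 (adjusted p = 0.997).

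In order of RPKM in control medium Tnfrsf12a (119.9 ± 5.16) stood first, ahead of Ltbr (44.2 ± 1.63), Tnfrsf1a (38.9) and Tnfrsf1b (17.4), and their ranges did not overlap. Tnfrsf1b and Tnfrsf22 (16.3 ± 0.778) overlapped in control medium, and with NETs they no longer did, at 26.6 and 13.7 RPKM. Tnfsf9 was the most abundant ligand in control medium, at 11.7 ± 0.395 RPKM, and its range overlapped that of Tnfrsf10b (10.8 ± 0.784). With NETs the ranges of Tnfsf9, Fas, Tnfrsf26, Tnfrsf21 and Tnfrsf23 overlapped, each with the next, between 8.74 and 6.44 RPKM on average. Fas and Tnfrsf21 had been the lowest of these 5 in control medium.

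Among the other receptors, Tnfrsf19 (TROY, an orphan receptor of epithelial and neural progenitors) fell at a low level. It had 1.20, 0.840 and 0.763 CPM in control libraries and 0.491, 0.465 and 0.504 CPM in NET libraries. The groups did not overlap, and the fall was 1.92-fold (log2 fold change -0.94 ± 0.319 SE, adjusted p = 0.0268). It was lost without control replicate 1 or any of the NET replicates (adjusted p from 0.0592 to 0.172). Tnfrsf9, the costimulatory receptor CD137, had 8.48 ± 0.526 CPM in control libraries and 9.14 ± 0.840 CPM in NET libraries (95% interval of the log2 change -0.12 to 0.32, adjusted p = 0.485). Tnfrsf14, the herpesvirus entry mediator, had 0.350 ± 0.0814 and 0.483 ± 0.251 CPM (95% interval -0.54 to 1.41, adjusted p = 0.498), with NET replicate 3 the lowest of all 6 libraries.

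**Figure D3:**
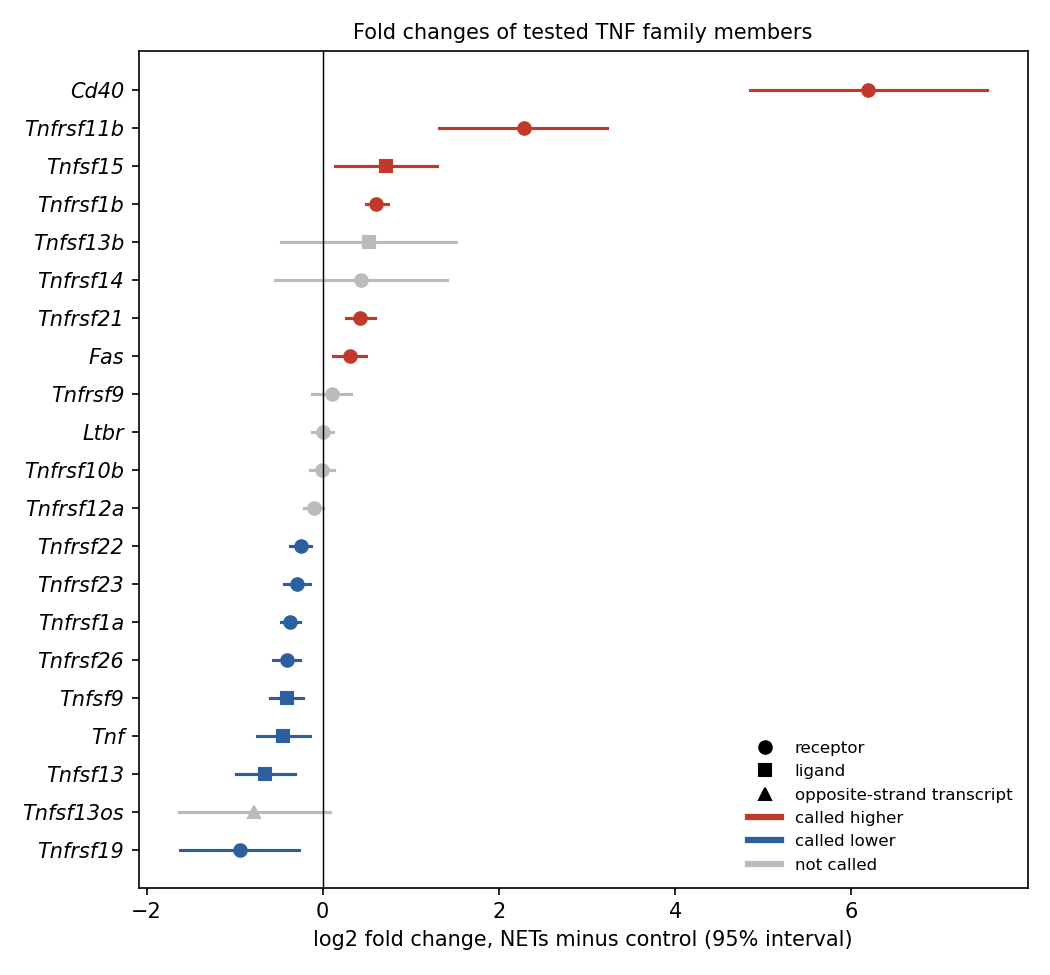
Log2 fold change (NETs minus control) of the 21 tested members with its 95% interval from edgeR. Circles are receptors, squares ligands and the triangle Tnfsf13os, and red and blue mark genes called higher and lower. Cd40 stands far right, where the fitted value depends on the prior count because control medium held 2 counts, and 7 members in grey were not called.

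Of the 15 ligand genes 5 were tested, and 3 fell (Tnf, Tnfsf9, Tnfsf13) while 1 rose (Tnfsf15). Tnfsf9, the ligand of CD137, had 14.9, 15.7 and 14.7 CPM in control libraries and 11.3, 10.2 and 12.3 CPM in NET libraries. Every NET library was below every control library, with a 1.33-fold fall (log2 fold change -0.41 ± 0.089 SE, adjusted p = 0.00138) that held with each library left out. An exon of Tnfsf9 overlaps Gm11110 on the other strand, which had 4.42 ± 0.977 CPM and 5.10 ± 0.424 CPM (adjusted p = 0.300). Without a stated strand setting, reads of 2 genes that overlap cannot be told apart.

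Tnfsf13 encodes APRIL, a survival factor for B cells and plasma cells, and had 6.04, 6.41 and 5.12 CPM in control libraries and 3.32, 3.12 and 4.61 CPM in NET libraries. The groups did not overlap, and it fell 1.57-fold (log2 fold change -0.65 ± 0.154 SE, adjusted p = 0.00295), with the call kept whichever library was left out. Its exons overlap Tnfsf13os and the Tnfsf12-Tnfsf13 fusion gene Tnfsfm13. Tnfsf13os had 1.08, 1.04 and 0.563 CPM in control libraries and 0.491, 0.199 and 0.795 CPM in NET libraries, with overlapping groups (log2 fold change -0.78, 95% interval -1.63 to 0.08, adjusted p = 0.146). Tnfsf15, the ligand TL1A, had 0.707, 0.708 and 0.726 CPM in control libraries and 0.982, 1.13 and 1.40 CPM in NET libraries. The 1.64-fold rise lay at the edge of the threshold (log2 fold change 0.72 ± 0.274 SE, adjusted p = 0.0477) and was lost in 5 of 8 other settings and without each library but NET replicate 1 (highest adjusted p 0.216, without NET replicate 3). Tnfsf13b, the B cell factor BAFF, had 0.257 ± 0.128 and 0.359 ± 0.0924 CPM and was not called (adjusted p = 0.417).

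For Tnfrsf12a and Ltbr, the most abundant receptor genes, the ligand genes had few counts, whereas Tnf, the ligand gene of Tnfrsf1a and Tnfrsf1b, had 5.64 ± 0.594 and 4.09 ± 0.640 CPM. Tnfsf12, which encodes the Fn14 ligand TWEAK, had 6 counts in control medium and 2 with NETs, against 232 ± 9.97 and 216 ± 6.03 CPM for its receptor gene Tnfrsf12a. Exons of Tnfsf12 also overlap Tnfsfm13 on the same strand, which had 40 counts in control libraries and 15 in NET libraries, and how reads that fit both were assigned is not known. The ligands of Ltbr were likewise scarce, with Ltb at 0.170 ± 0.0568 and 0.163 ± 0.0334 CPM, Lta at 0.184 ± 0.0317 and 0.178 ± 0.0305 CPM, and Tnfsf14 (LIGHT) without a count. Tnfsf10, the TRAIL gene, had 36 counts in control medium and 16 with NETs, and Fasl had 4 and 8. For Cd40, the ligand gene Cd40lg had no count in any library. A count of zero in a group allows a level of up to 0.0368 CPM in control libraries and 0.0463 CPM in NET libraries, taking 3 read pairs as 6 counts.

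The 19 members under the low-count filter were Tnfsf4, Tnfsf8, Tnfsf10, Tnfsf11, Tnfsf12, Tnfsf14, Tnfsf18, Fasl, Lta and Ltb among the ligands and Tnfrsf4, Tnfrsf8, Tnfrsf11a, Tnfrsf13b, Tnfrsf13c, Tnfrsf17, Tnfrsf18, Tnfrsf25 and Eda2r among the receptors. Of these Tnfsf11, Tnfsf14, Tnfrsf18 and Eda2r had no count in any library. The B cell receptors Tnfrsf13b, Tnfrsf13c and Tnfrsf17 had 2 counts each in all libraries together. Tnfrsf4 (OX40) had at most 9 counts in a library, and Tnfrsf8 (CD30) at most 10.

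In the coordinates of the deposited table several members lie side by side. Tnfrsf26, Tnfrsf22 and Tnfrsf23 span 143161396 to 143182459, 143188543 to 143203398 and 143219546 to 143239609 of chromosome 7. Ltbr and Tnfrsf1a span 125283534 to 125290848 and 125326325 to 125339447 of chromosome 6, and these neighbours behaved differently, with Tnfrsf1a lower and Ltbr not called. On chromosome 4 Tnfrsf1b (144940033 to 144973440) rose, and the next member, Tnfrsf8 (144993707 to 145041734), stayed below 0.2 CPM in every library. Tnf spans 35418357 to 35420983 of chromosome 17 between Ltb and Lta, both of which were too low to test. Cd40 spans 164897547 to 164914868 of chromosome 2, Tnfrsf11b 54114015 to 54141880 of chromosome 15 and Fas 34268066 to 34305172 of chromosome 19. Spans run over exons and introns. Only 1 of the 40 members overlaps its position in GRCm38, the assembly of the mm10 build that the submitters name, so the build of these positions is not known, and they must not be read against the promoter positions above.

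The other genes of TNF signalling were taken as a list of 63 genes, of which 53 were tested. On it 18 genes rose and 9 fell, against 20.2% and 18.7% of all genes tested, with a median log2 fold change of 0.09. Scaled by library size alone the split was 12 higher and 12 lower, with a median of 0.03. That scaling also moved all genes tested, to 2106 higher and 3763 lower with a median of -0.07. Whether rises outnumber falls on the list therefore depends on the scaling. The list lay towards rises relative to all genes, a difference that was not tested. A scaling moves the list and all genes alike, so finding that difference under both scalings is no separate evidence. The list was chosen with earlier results of these data known. The part with the most calls held inhibitors of NF-kB and of the signalling complex and NF-kB subunits, where 7 of 10 tested genes rose and 1 fell, or 6 and 1 by library size alone.

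Nfkbie, an inhibitor that holds NF-kB in the cytoplasm, rose 2.08-fold from 19.4 ± 0.715 to 40.2 ± 2.62 CPM (adjusted p = 1.77e-09). Tnfaip3, the ubiquitin-editing enzyme A20, went from 92.2 ± 4.29 to 164 ± 4.91 CPM (adjusted p = 8.62e-10), and its partner Tnip1 rose 1.48-fold to 273 ± 17.5 CPM (adjusted p = 3.28e-07). Nfkbia, another cytoplasmic inhibitor on the list, fell 1.42-fold from 113 ± 4.45 to 79.8 ± 5.47 CPM (adjusted p = 2e-06). Nfkbie and Nfkbia thus went in opposite directions. Map3k14, the NF-kB-inducing kinase that acts below CD40 and Ltbr, rose 1.51-fold from 21.6 ± 1.05 to 32.6 ± 3.12 CPM (adjusted p = 7.54e-06).

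Xiap, a ubiquitin ligase that inhibits caspases, fell 1.43-fold from 180.4 ± 6.31 to 126 ± 8.42 CPM (adjusted p = 8.14e-07). Map3k5, the stress kinase ASK1 that TRAF2 engages, fell 1.68-fold from 98.3 ± 3.40 to 58.4 ± 2.81 CPM (adjusted p = 8.42e-09).

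The 2 tested family members outside the naming rule, Relt and Ngfr, moved further than any tested rule member but Cd40 and Tnfrsf11b. Relt, an orphan receptor related to Tnfrsf19, had 4.16, 3.76 and 3.74 CPM in control libraries and 12.8, 11.5 and 11.1 CPM in NET libraries, a 3.03-fold rise (adjusted p = 4.02e-09). Ngfr, the p75 neurotrophin receptor with a death domain, had 7.43, 8.16 and 8.01 CPM and then 3.35, 3.65 and 4.11 CPM, a 2.11-fold fall (adjusted p = 1.92e-06). Neither gene's groups overlapped. Tnfaip2, which is named for its induction by TNF as Tnfaip3 is, fell 1.54-fold from 379 ± 17.2 to 246 ± 1.97 CPM (adjusted p = 1.89e-08).

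**Figure D4:**
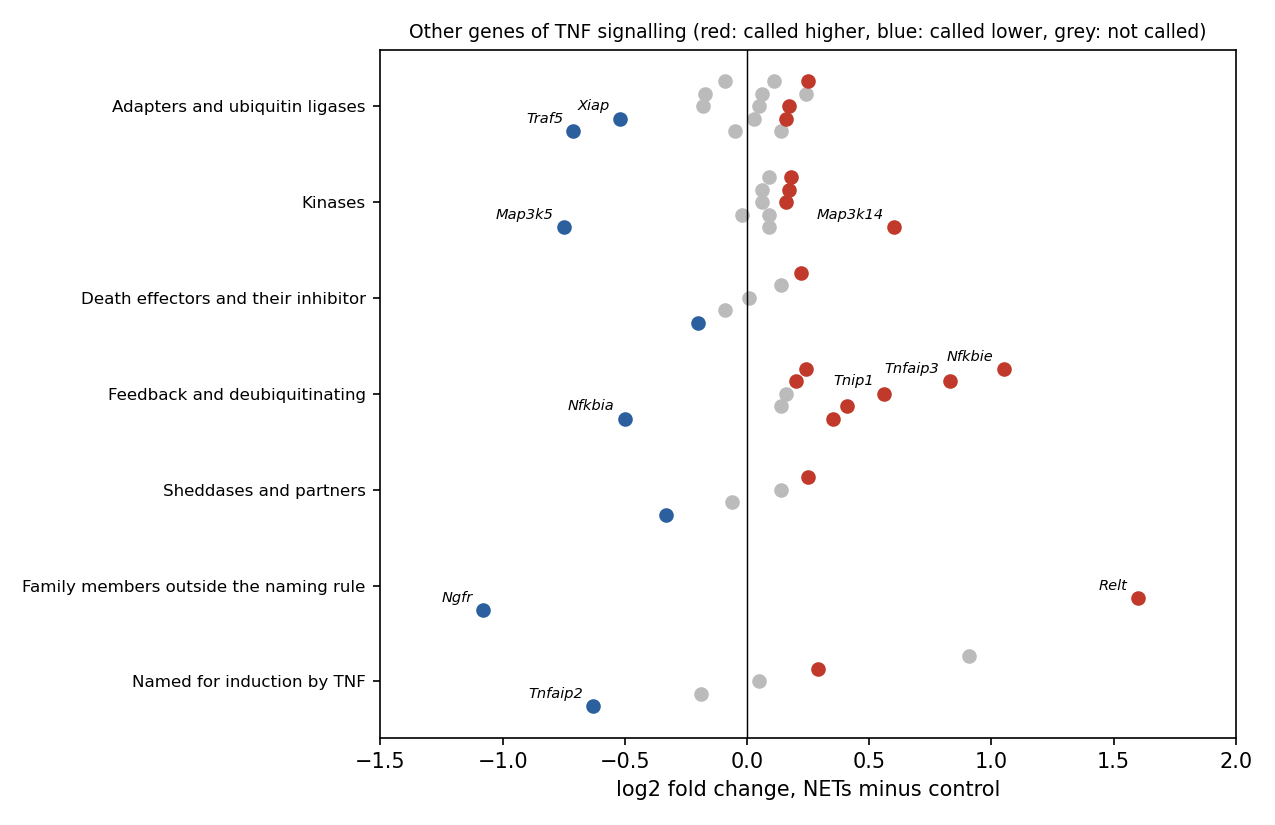
Log2 fold change (NETs minus control) of 52 of the 53 tested genes of the signalling list by role, each point a gene, spread vertically for legibility. Red is called higher, blue called lower and grey not called, and called genes that changed by at least 0.5 are named. Relt and Nfkbie lie farthest right, at 1.60 and 1.05, and Ngfr farthest left, at -1.08.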

How the data were processed

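The authors deposited raw counts per gene symbol in the columns of a featureCounts output. The submitters' processing notes name STAR 2.7.10a, Subread 2.0.3 and mm10. A stranded mRNA kit was used, per the labels' protocols. How strand and multi-mapping reads were treated, and which annotation was used, is not stated in the labels or the table. Exon lengths in bases are also those of the deposited table. Between 74.8% and 78.4% of counts from 1 to 20 were even, so mates of a pair appear to have been counted separately. Libraries were grouped by their titles and scaled by TMM, and genes were filtered with filterByExpr (minimum count 10) and tested with edgeR 4.0.16 (glmQLFit, robust, glmQLFTest) in R 4.3.3, with medium as the only term. Genes tested took 99.95% of counts or more, and the common biological coefficient of variation was 0.062. Each SE is the size of the log2 fold change over the root of its F value. The same steps were tested on simulated data. Alternatives were other scalings and low-count filters, DESeq2 1.42.0, limma-voom (limma 3.58.1), counts halved, a replicate block and each library left out. Full values are given for each called member and for uncalled members of at least 10 CPM, and pathway genes are named if called, changed by at least 0.5 (log2) and at least 5 CPM. Members and lists were chosen with earlier results of these data known. Chi-square over degrees of freedom between replicates was 9.62 to 25.2, so none is a copy of another. Promoters were read from RefSeq (GRCm38.p6), where 31 of the 40 members matched. Intervals and limits for a count of zero cover counting error only. The values of 1 gene of the signalling list, which is no family member, are not reported here.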

Additional observations from a re-analysis of the deposited data

How the results depend on the processing

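The number of members called lay between 10 and 14 in every setting, against 14 with the methods used here, and 11 to 13 with a library left out. Of the 14 calls 12 were kept without control replicate 2 and 10 without NET replicate 2, where Tnfsf18 was called as well. No member that was called in any setting changed direction. The calls of Tnfsf15, Tnfrsf19, Tnf and Fas depended on the settings or libraries named beside them, and Cd40, Tnfrsf11b, Tnfrsf19 and Tnfsf15 were not tested under a filter of at least 1 CPM in 3 libraries. That filter moved the median log2 fold change of tested members from -0.01 to -0.18, as it tests 14 members and not 21. Library size alone shifted all genes by -0.07 in the median and gave 2106 genes higher and 3763 lower, against 2825 and 2605. Over all genes 5430 were called, and 4321 to 5181 with a library left out. On the signalling list 21 to 26 genes were called with a library left out, against 27. Whether the replicate numbers of the titles pair the libraries is not known. Deviations from the group mean correlated at 0.118, -0.059 and 0.056 for same-numbered libraries, and at -0.172 to 0.108 for the others. With 3 libraries a group, such correlations cannot decide the question. A replicate block called 13 members, losing Tnfsf15 (log2 fold change 0.70, adjusted p = 0.0635), and 5682 genes in all.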

Other observations

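Tnfsf18, which encodes the ligand of the costimulatory receptor GITR, was below the low-count filter. It had 20, 8 and 16 counts in control replicates 1 to 3 and 0, 4 and 0 counts with NETs. When every gene with a count was tested, it was called lower (log2 fold change -2.84, adjusted p = 0.00856 in edgeR), and of the 15 members that this setting added to the test none of the others was called. Tnfsf18 was also tested and called on leaving out control replicate 2 or NET replicate 2. This gene was singled out after its values were seen. Its receptor gene Tnfrsf18 had no count in any library.

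Among the members with a RefSeq promoter window, the kappaB consensus lay before Tnfrsf9, which was tested and not called, and before Tnfrsf8 and Ltb, which were not tested. The AP-1 motif TGANTCA lay before Fas, which rose, before Tnfsf13, which fell, and before Tnfsf13b and Tnfrsf9, which were not called. It also lay before Tnfrsf8 and Tnfsf14, which were not tested. Tnfrsf9 and Tnfsf13b have alternative annotated starts. The matches of Tnfrsf9 lay in the window from 150927749 and not in that from 150919905. The match of Tnfsf13b lay in the window from 10006383 and not in that from 10006217. Of all promoter windows 3.9% hold the kappaB consensus and 6.75% the AP-1 motif. All these matches are descriptions of letters in the 250 bases before an annotated start.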
